A study of Mus musculus with 6 samples.

Results

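The 56 genes described here encode the machinery of mitosis and cytokinesis, from the kinase CDK1 and its cyclins to kinetochores, condensins, spindle motors and the proteins that divide the cell body. They were taken by symbol from a fixed list, chosen with earlier results of these data known. Their shares set beside those of all genes are therefore descriptions. All 56 were found among the 23284 genes counted in every library. RNA was sequenced from lymph node CD8 T cells of C3H/HeJ mice, an inbred strain used to model alopecia areata, an autoimmune loss of hair. Every sorted population was CD3+CD8+CD44+CXCR3+, a phenotype of antigen-experienced T cells. The 3 NKG2D+ libraries also carried NKG2D, an activating receptor encoded by Klrk1, and the 3 NKG2D- libraries did not. The populations came from 3 separate mice, and libraries with the same number were taken to be from the same mouse. The labels used here state no age, sex, disease state or treatment of the mice.

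A resting T cell holds little RNA for mitosis. When it is driven into the cell cycle, genes of DNA replication are transcribed from late G1 and genes of mitosis later, in G2. Some of their products are destroyed again as the cell divides. Memory CD8 T cells divide slowly in the body and effector cells quickly, so RNA of this kind is a common readout of how many cells of a population are cycling. In sorted bulk samples, more cycling cells and more of this RNA per cycling cell cannot be told apart.

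Libraries held 41168816 to 67315805 gene counts in NKG2D- and 63232698 to 89184611 in NKG2D+ cells, with more counts on the NKG2D+ side of all 3 pairs. Klrk1 stood at 312 to 409 CPM in NKG2D+ and 34.5 to 37.1 CPM in NKG2D- libraries (CPM, a gene's counts scaled to a fixed library total after TMM scaling), and Cd3e and Cd8a were present in all 6. The 13 B-cell markers in the files were all estimated higher in NKG2D+ cells (median log2 fold change 1.47). None passed by edgeR (0 of 13), and 12 were higher at an unadjusted p under 0.05, against 12.5% of all genes. For these markers limma-voom called 0 and DESeq2 5, against 7.54% of all genes by DESeq2. Their summed level was 649, 404 and 457 CPM in NKG2D+ libraries 1, 2 and 3 and 114, 295 and 247 CPM in NKG2D- libraries 1, 2 and 3. Of 8 markers of germinal centre B cells, a dividing kind of B cell, the summed level was 39.8 to 53.6 against 37.6 to 42.4 CPM. Summed levels of 19 myeloid markers overlapped between the groups, at 274 to 522 against 395 to 435 CPM, and 5 plasma cell markers gave 38.5 to 79.6 against 33.8 to 38.6 CPM. For 7 NK-cell markers the sums were 3.95 to 8.08 against 1.61 to 3.06 CPM, for 4 markers of CD4 and regulatory T cells 44.4 to 123 against 47.8 to 55.9 CPM, and for 8 stromal and endothelial markers 53.4 to 59.4 against 69.5 to 71.8 CPM. Of all these markers edgeR called Gpr141 (NK list) and Col1a1 (stromal list) higher and Pecam1 (stromal list) lower. The part of other cells in the results below was not tested. The B-cell covariate used below cannot separate B-cell content from the group. Erythroid precursors, which also divide, left almost no trace, with 8 markers summing to at most 0.782 CPM and Hba-a1, Hba-a2 and Hbb-b2 at 0 in every library.

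Mitosis and cytokinesis genes were measured at higher levels in NKG2D+ cells almost without exception. Of the 56 genes, 53 had a positive log2 fold change, against 47.2% of all 12951 genes tested. The median was 0.57, or 1.49-fold, where the median over all genes tested was -0.01. By edgeR's quasi-likelihood test with Benjamini-Hochberg adjustment over all genes, 11 of the 56 rose in NKG2D+ cells, against 1.65% of all genes. None fell, against 0.363% of all genes: 0 by edgeR and by limma-voom, 1 by DESeq2 (against 3.05% of all genes), and 1 of the 56 lower at an unadjusted p under 0.05. At that unadjusted p 38 of the 56 were higher, against 12.5% of all genes. The 11 were Mki67, Top2a, Kif15, Kif11, Stmn1, Aurkb, Foxm1, Cdk1, Ccna2, Prc1 and Ncapg. For 43 of the 56 genes every NKG2D+ library lay above every NKG2D- library, against 15.1% of all genes, and for 1 gene, Smc4, every NKG2D+ library lay below, against 14.1%. All 3 same-numbered pairs were higher in NKG2D+ for 52 of the 56, against 25.9% of all genes. The exceptions were Smc4, Racgap1, Cdc20 and Kif23.

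**Figure D1:**
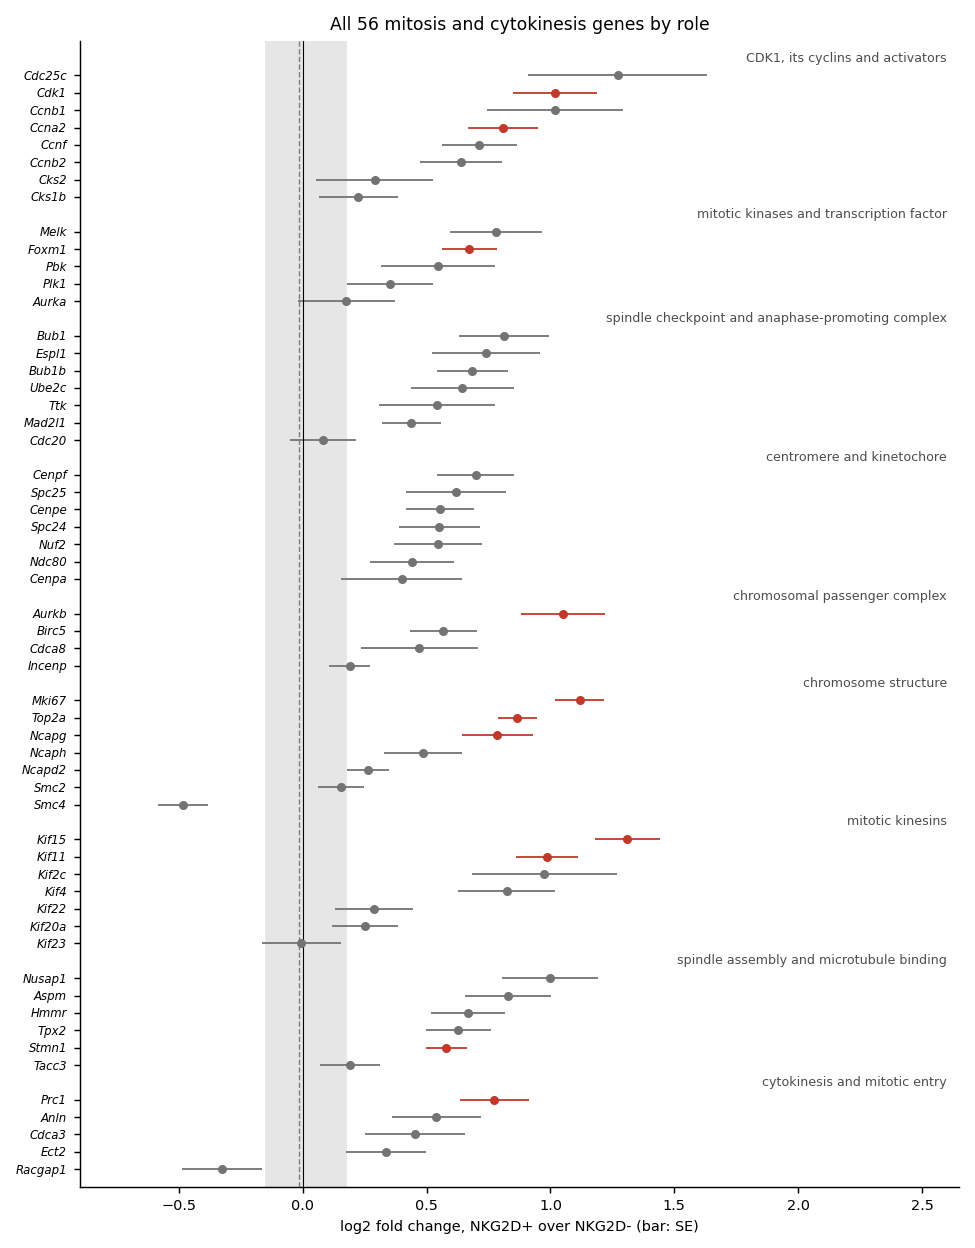
Log2 fold change of each of the 56 genes, NKG2D+ over NKG2D- (x axis), grouped by role, with the standard error as a bar. Red marks the 11 genes with an adjusted p under 0.05, the dashed line the median of all genes tested (-0.01) and the grey band their quartiles (-0.15 and 0.18). Points run from -0.48 for Smc4 to 1.31 for Kif15.

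The number of genes past the threshold moved with single libraries, while the direction did so little. It was 18 without NKG2D+ library 1, 15 without NKG2D+ library 2 and 0 without NKG2D+ library 3, where 3.22%, 6.86% and 0.0841% of all genes were called higher. It was 1, 1 and 0 without NKG2D- libraries 1, 2 and 3, where 0.113%, 0.0679% and 0.0303% of all genes were. In the fits without NKG2D+ library 3 and without NKG2D- library 3, edgeR called 0. At an unadjusted p under 0.05, 32 and 30 of the 56 genes were higher in these fits. Over all genes tested, 1361 of 13074 and 1111 of 13189 were. Without NKG2D+ library 1 the fit also called 1 gene lower, Smc4, against 0.905% of all genes. The other fits called none of the 56 lower, against 3.10% of all genes without NKG2D+ library 2, 0.0306% without NKG2D+ library 3, and 0.0453%, 0.0302% and 0.0303% without NKG2D- libraries 1, 2 and 3. In all 6 of these fits 52 of the 56 genes had a positive log2 fold change. With the mouse as a block, 3 rose, Mki67, Top2a and Kif15, against 0.440% of all genes, and 0 fell, against 0.0849% (1 lower at an unadjusted p under 0.05). Blocked adjusted p-values of the other 8 were 0.0558 for Kif11, 0.0687 for Cdk1, Aurkb and Stmn1, 0.0716 for Prc1, 0.0777 for Ccna2 and Foxm1 and 0.0975 for Ncapg. DESeq2 called 31 of the 56 higher, against 7.54% of all genes, and limma-voom 6, against 0.463%. Without both libraries of mouse 1 edgeR called 10 higher and 1 lower, against 1.36% and 0.389% of all genes. Without those of mouse 2 it called 4 higher, against 2.45%, and without those of mouse 3 it called 0 higher, against 0%. In this last fit 16 of the 56 were higher at an unadjusted p under 0.05, as were 731 of all 12964 genes. The newer edgeR fit, tried after seeing the data, called 10 higher, against 1.18%.

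Within each mouse the shift was of like size. The median log2 ratio of the 56 genes, NKG2D+ over NKG2D- library on the log2(CPM + 0.5) scale, which understates the change of low genes, was 0.45 in mouse 1, 0.50 in mouse 2 and 0.58 in mouse 3. In these mice 52, 55 and 54 of the 56 genes were higher in the NKG2D+ library. The summed level of the B-cell markers was 5.68, 1.37 and 1.85 times as high in the NKG2D+ as in the NKG2D- library of mice 1, 2 and 3. The B-cell level was thus higher on the NKG2D+ side of all 3 pairs, and its part in the mitosis shift was not tested. The ratio of gene counts between the libraries of a pair was 1.54, 1.51 and 1.10. The mean log2 level of the B-cell markers was 3.87 to 5.02 in NKG2D+ and 2.14 to 3.61 in NKG2D- libraries, without overlap. A fit with this level as a covariate therefore cannot separate B-cell content from the group. With this covariate, 55 of the 56 genes had a positive log2 fold change and the median was 0.66. In that fit, with 3 residual degrees of freedom in place of 4, edgeR called 0 of the 56 and 0.0154% of all genes. At an unadjusted p under 0.05, 28 of the 56 were higher, as were 394 of all 12951 genes.

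**Figure D2:**
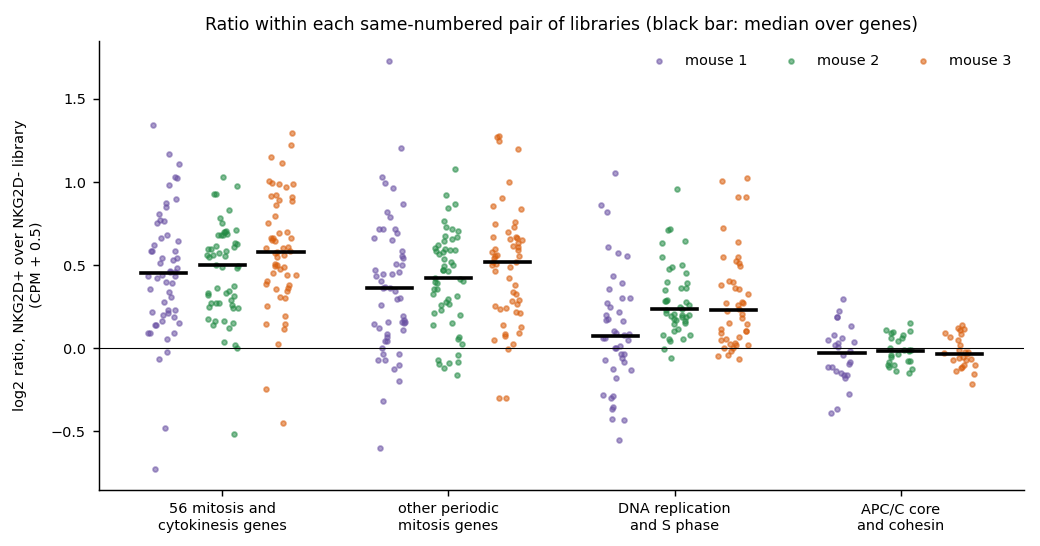
Log2 ratio of NKG2D+ over NKG2D- library within each of 3 mice (y axis, CPM + 0.5), 1 point per gene, for the 56 mitosis and cytokinesis genes, other periodic mitosis genes, S-phase genes, and the core of the anaphase-promoting complex with cohesin. Black bars are medians: 0.45, 0.50 and 0.58 for the 56 genes in mice 1, 2 and 3, and 0.07, 0.23 and 0.23 for S-phase genes.

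The promoters of these genes share sequence features that played no part in choosing them. Many late cell-cycle genes carry a CHR (cell cycle genes homology region), bound by the DREAM complex in resting cells and by B-MYB and FOXM1 complexes in cycling ones, downstream of CCAAT boxes bound by NF-Y. RefSeq promoters on GRCm38.p6, 250 bases before to 50 after the gene start, were matched for 45 of the 56 genes, with 47 starts in all. Both strands were searched for the CHR forms TTTGAA and TTCGAA and for CCAAT. At least 1 CHR match lay within 50 bases of the start in 34 of 47 promoters (72.3%), against 3.54% of the 11656 promoters of all genes tested. A CCAAT match was present in 76.6% against 37.7%, and both a CHR within 50 bases of the start and a CCAAT in 66% against 1.62%. The 56 promoters of other periodic mitosis genes gave 46.4%, 64.3% and 28.6% for these measures, so the features are not particular to the genes described here. Promoters of S-phase genes gave 7.5%, 55% and 7.5%. The E2F forms TTTCCCGC and TTTGGCGC were in 6.38% of the promoters of the 56 genes, 30% of those of S-phase genes and 2.84% of all genes tested. Of the genes that rose, 7 had a matched promoter, giving 8 promoters because Prc1 has 2 starts. A CHR lay within 50 bases of the start in 7 of these 8 and anywhere in 8 of 8. Among the promoters of matched genes that did not pass, the counts were 27 and 29 of 39. These 39 promoters belong to 38 genes, because Ect2 also has 2 starts. At least 2 CCAAT matches lay in 3 of 8 against 22 of 39 promoters. These differences were not tested. Only 1 CHR match in the 47 promoters overlapped a CCAAT match. These matches are descriptions of the letters, and no binding was measured.

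The windows below, 180 bases before and 20 after the start, are shown for the gene with the largest increase (Kif15), 4 other genes that rose, and Racgap1, which has the same elements and did not rise. Each is printed 5′ to 3′ on the strand of the gene, with CHR and CCAAT matches of either strand in capitals (TTCAAA and ATTGG are the reverse complements). Positions on GRCm38.p6 are chr10:69352893-69353092 (minus strand) for Cdk1, chr7:135716360-135716559 (minus) for Mki67, chr11:99024170-99024369 (minus) for Top2a, chr19:37376202-37376401 (plus) for Kif11, chr9:122950901-122951100 (plus) for Kif15 and chr15:99651637-99651836 (minus) for Racgap1.
Cdk1: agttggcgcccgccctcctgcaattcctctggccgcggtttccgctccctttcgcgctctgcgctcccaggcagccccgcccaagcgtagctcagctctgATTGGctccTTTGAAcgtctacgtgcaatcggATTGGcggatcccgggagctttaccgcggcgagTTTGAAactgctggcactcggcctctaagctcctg
Mki67: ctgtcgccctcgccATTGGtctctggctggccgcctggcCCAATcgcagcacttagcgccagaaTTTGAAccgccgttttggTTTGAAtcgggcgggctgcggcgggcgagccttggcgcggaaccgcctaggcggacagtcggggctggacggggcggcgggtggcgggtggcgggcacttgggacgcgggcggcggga
Top2a: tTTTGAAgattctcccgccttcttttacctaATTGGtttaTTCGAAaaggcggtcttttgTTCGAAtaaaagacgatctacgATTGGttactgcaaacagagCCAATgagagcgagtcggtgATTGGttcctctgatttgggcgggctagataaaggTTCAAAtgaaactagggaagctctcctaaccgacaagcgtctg
Kif11: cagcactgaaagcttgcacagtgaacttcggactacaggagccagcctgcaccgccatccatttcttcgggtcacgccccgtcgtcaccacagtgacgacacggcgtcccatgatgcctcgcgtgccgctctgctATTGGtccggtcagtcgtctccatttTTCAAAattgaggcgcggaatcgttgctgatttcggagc
Kif15: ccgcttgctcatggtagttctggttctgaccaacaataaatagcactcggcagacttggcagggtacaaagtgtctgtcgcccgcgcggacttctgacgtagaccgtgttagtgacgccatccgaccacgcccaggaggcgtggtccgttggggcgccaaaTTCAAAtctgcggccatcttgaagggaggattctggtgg
Racgap1: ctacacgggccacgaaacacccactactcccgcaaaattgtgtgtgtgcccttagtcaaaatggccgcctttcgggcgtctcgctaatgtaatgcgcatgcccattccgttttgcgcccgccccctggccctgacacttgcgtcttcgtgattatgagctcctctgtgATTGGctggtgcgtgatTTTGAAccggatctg
Cdk1, Kif11, Kif15 and Top2a each have a CHR match just upstream of the start and Racgap1 one just downstream, whereas the pair of matches in Mki67 lies further upstream. Kif15 has no CCAAT match in this window, and Top2a has 4.

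**Figure D3:**
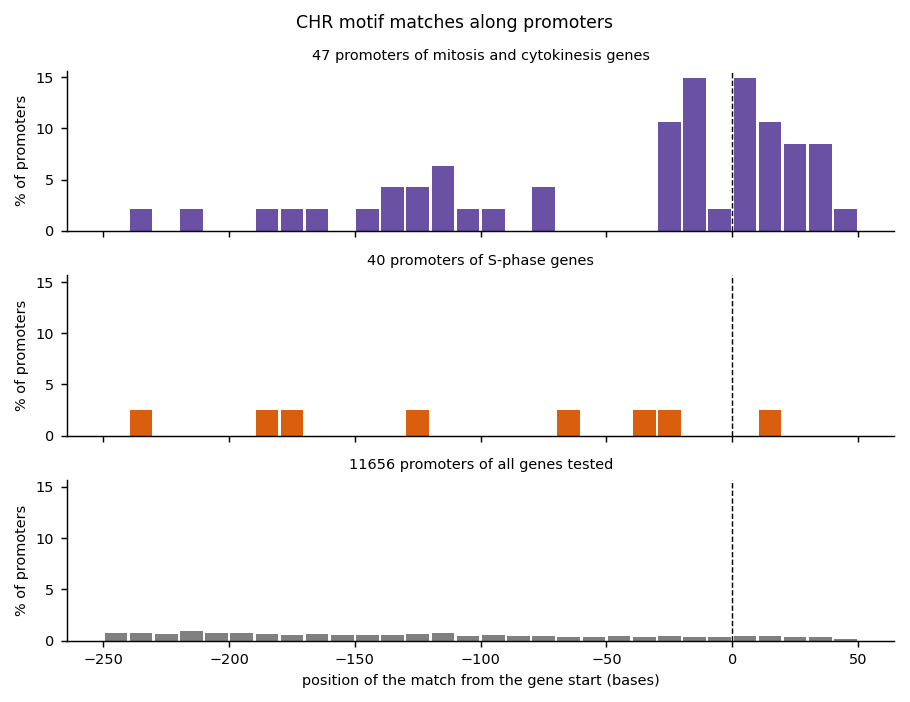
Share of promoters (y axis, percent) with a CHR match beginning in each 10-base bin, by position from the gene start (x axis, bases, dashed line at the start), for 47 promoters of the mitosis and cytokinesis genes, 40 of S-phase genes and 11656 of all genes tested. Matches of the first set gather from -30 to 40 bases, with up to 14.9% of promoters in a bin, where all genes tested stay under 1%.

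The trigger of mitosis is CDK1 bound to a cyclin. Of 8 genes for CDK1, its cyclins and activators, 2 rose. Cdk1 itself, the kinase, stood at 5.75, 5.36 and 5.04 CPM in NKG2D+ libraries 1, 2 and 3 and at 3.07, 2.59 and 2.32 CPM in NKG2D- libraries 1, 2 and 3. The groups did not overlap, and the log2 fold change was 1.02 (SE 0.17, adjusted p = 0.0383 by edgeR). Ccna2 encodes cyclin A2, which acts in S phase and G2. It stood at 9.96, 9.58 and 9.75 CPM in NKG2D+ against 6.47, 5.36 and 4.91 CPM in NKG2D- libraries (log2 fold change 0.81, SE 0.14, adjusted p = 0.043). The coefficient of variation (SD over mean) was 1.94% among its NKG2D+ and 14.4% among its NKG2D- libraries. Part of its exons, 10.4% of their length in the GENCODE annotation, overlaps Exosc9 on the other strand, so its level is uncertain. Ccnb1 and Ccnb2, the B-type cyclins of mitosis, had log2 fold changes of 1.02 (adjusted p = 0.107) and 0.64 (adjusted p = 0.0957), with no overlap between the groups. Ccnf, whose product is an F-box protein, gave 0.71 (adjusted p = 0.0672). Cdc25c, a phosphatase that activates CDK1, had the second highest estimate of the 56, 1.27, but at 0.125 to 0.514 CPM in the 6 libraries its standard error was 0.36 and its adjusted p 0.117. The CDK-binding subunits Cks1b and Cks2 gave 0.22 and 0.29, and their groups overlapped. Cks2 was highest in library 1 of both populations, 13.8 CPM in NKG2D+ and 11.0 CPM in NKG2D-.

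Of 5 mitotic kinases and transcription factors, Foxm1 rose. FOXM1 is the factor that drives transcription of the G2 and mitosis genes. Foxm1 stood at 12.9, 12.3 and 13.2 CPM in NKG2D+ and 8.72, 8.03 and 7.38 CPM in NKG2D- libraries (log2 fold change 0.67, SE 0.11, adjusted p = 0.0365). No NKG2D- library reached the lowest NKG2D+ library. Melk, a kinase of proliferating cells, gave 0.78 (adjusted p = 0.0841) and Pbk, another, 0.55 (adjusted p = 0.235). Plk1, the polo-like kinase of mitotic entry and exit, and Aurka, the Aurora kinase of spindle poles, gave 0.35 (adjusted p = 0.306) and 0.18 (adjusted p = 0.662). Plk1 groups did not overlap, at 4.18 to 4.71 against 2.96 to 4.005 CPM, and Aurka groups did.

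The spindle checkpoint holds anaphase until chromosomes are attached, and the anaphase-promoting complex then releases it. By edgeR 0 of its 7 genes passed, with 5 higher at an unadjusted p under 0.05, against 12.5% of all genes. DESeq2 called 4, against 7.54% of all genes, and limma-voom 0. The smallest p was that of the checkpoint kinase-like gene Bub1b, at 7.22, 9.26 and 8.30 CPM in NKG2D+ and 4.84, 5.48 and 5.10 CPM in NKG2D- libraries (log2 fold change 0.69, SE 0.14, adjusted p = 0.0681). Bub1, a checkpoint kinase, gave 0.81, Espl1, the protease separase, 0.74, Ube2c, a ubiquitin-conjugating enzyme, 0.65, the kinase gene Ttk 0.54 and the checkpoint gene Mad2l1 0.44. In these 6 genes every NKG2D+ library lay above every NKG2D- library, as in 15.1% of all genes. The exons of Ube2c overlap Tnnc2 on the other strand over 22.8% of their length. Cdc20, which activates the anaphase-promoting complex, differed little, at 12.1, 14.7 and 11.8 CPM in NKG2D+ against 12.3, 13.3 and 10.8 CPM in NKG2D- libraries (log2 fold change 0.08, SE 0.13, adjusted p = 0.773).

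Kinetochores join chromosomes to spindle fibres at the centromere. All 7 centromere and kinetochore genes had log2 fold changes between 0.40 and 0.70, a narrow range. By edgeR 0 of the 7 passed, and 6 were higher at an unadjusted p under 0.05, against 12.5% of all genes. DESeq2 called 4, against 7.54% of all genes, and limma-voom 0. Cenpf had the smallest p, at 5.48, 5.65 and 6.75 CPM in NKG2D+ and 3.93, 3.70 and 3.40 CPM in NKG2D- libraries (log2 fold change 0.70, SE 0.16, adjusted p = 0.0746). The kinetochore motor Cenpe gave 0.55, and the NDC80 complex genes Ndc80, Nuf2, Spc24 and Spc25 gave 0.44, 0.55, 0.55 and 0.62. In these genes too every NKG2D+ library lay above every NKG2D- library, as in 15.1% of all genes. Cenpa, the histone variant of centromeres, gave 0.40 with overlapping groups, since NKG2D+ library 1 stood at 14.0 CPM and libraries 2 and 3 at 8.27 and 8.69 CPM, against 6.44 to 9.45 CPM in NKG2D-.

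Of the 4 genes of the chromosomal passenger complex, which corrects wrong attachments and later guides cytokinesis, its kinase gene Aurkb rose. Aurkb stood at 4.81, 4.31 and 4.35 CPM in NKG2D+ and 2.44, 1.94 and 2.12 CPM in NKG2D- libraries (log2 fold change 1.05, SE 0.17, adjusted p = 0.0361). Its lowest NKG2D+ library held well above its highest NKG2D- library. The partners did not follow to the same estimate: Birc5, which encodes survivin, gave 0.57 (adjusted p = 0.0851), Cdca8, which encodes borealin, 0.47 (adjusted p = 0.31) and Incenp, the scaffold, 0.19 (adjusted p = 0.246). Whether these estimates differ from that of Aurkb was not tested. Incenp was at 38.0 to 44.0 against 33.9 to 36.8 CPM, without overlap.

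**Figure D4:**
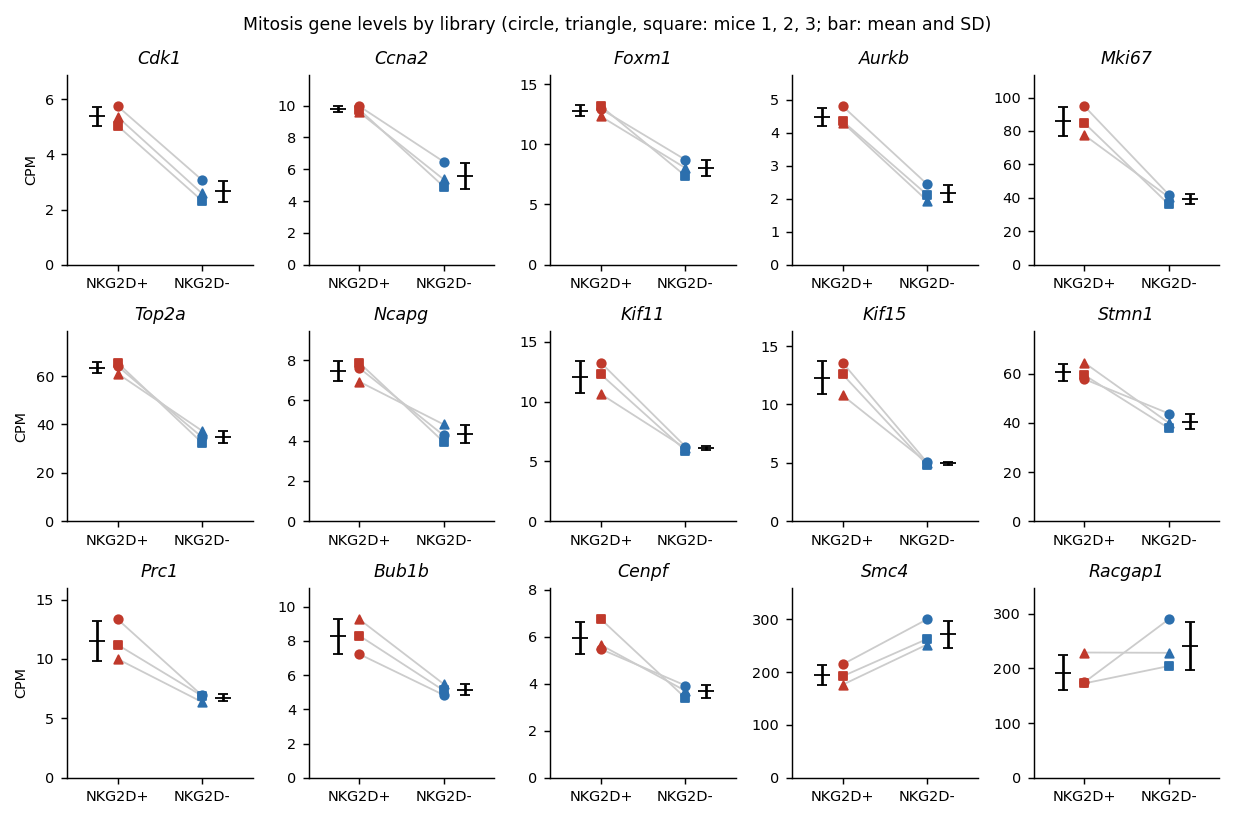
CPM (y axis, from 0) in each NKG2D+ (red) and NKG2D- (blue) library for the 11 genes that rose, for Bub1b and Cenpf, and for Smc4 and Racgap1; lines join libraries of 1 mouse and black bars give the mean and SD of 3 libraries. In the first 13 panels every red point lies above every blue one. Smc4 shows the reverse, and Racgap1 overlaps.

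Proteins of chromosome structure held the smallest p-values and also the clearest exception. Of 7 genes, 3 rose. Mki67 encodes Ki-67, the coat of mitotic chromosomes and a standard marker of cycling cells. It was measured at 94.8, 77.5 and 84.7 CPM in NKG2D+ and 41.9, 40.4 and 36.1 CPM in NKG2D- libraries (log2 fold change 1.12, SE 0.10, adjusted p = 0.0089). Every NKG2D+ library held more than 1.5 times the highest NKG2D- library. Top2a, which untangles DNA, reached 64.1, 61.0 and 65.5 CPM against 34.8, 37.4 and 32.4 CPM (log2 fold change 0.87, SE 0.08, adjusted p = 0.0089). Its coefficient of variation was 3.60% among NKG2D+ and 7.13% among NKG2D- libraries. Ncapg, a subunit of condensin I, the ring that compacts chromosomes, gave 7.60, 6.93 and 7.86 against 4.26, 4.80 and 3.93 CPM (log2 fold change 0.79, SE 0.14, adjusted p = 0.0481). Lcorl, on the other strand, overlaps 20.8% of its exon length. The other condensin I genes Ncaph and Ncapd2 gave 0.49 (adjusted p = 0.15) and 0.26 (adjusted p = 0.144), both without overlap.

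Smc2 and Smc4 encode the ATPase core that both condensins share, and Smc4 went against the rest. Smc2 stood at 56.9, 49.1 and 53.9 CPM in NKG2D+ and 51.6, 43.5 and 48.7 CPM in NKG2D- libraries (log2 fold change 0.15, adjusted p = 0.397), higher in NKG2D+ cells of all 3 mice. Smc4 stood at 215, 176 and 192 CPM in NKG2D+ and 300.1, 252 and 263 CPM in NKG2D- libraries, lower in NKG2D+ cells of all 3 mice. With all 6 libraries it missed the threshold, at a log2 fold change of -0.48 (SE 0.10) with an adjusted p of 0.0667. It passed without NKG2D+ library 1 (log2 fold change -0.56, adjusted p = 0.0196), without both libraries of mouse 1 (-0.48, adjusted p = 0.0347), without a filter on low counts (adjusted p = 0.0499) and by DESeq2 (adjusted p = 0.00201). The blocked adjusted p was 0.0529.

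Kinesins are motors that push spindle poles apart and carry chromosomes and midzone proteins. Of 7 kinesin genes, 2 rose, both for motors that keep the spindle bipolar. Kif15 had the highest log2 fold change of all 56 genes. It stood at 13.6, 10.8 and 12.6 CPM in NKG2D+ and 5.04, 5.02 and 4.82 CPM in NKG2D- libraries (log2 fold change 1.31, SE 0.13, adjusted p = 0.0145), and was the highest of the 56 in the log2 ratio of each mouse. Kif11 stood at 13.2, 10.6 and 12.3 CPM against 6.25, 6.10 and 5.91 CPM (log2 fold change 0.98, SE 0.13, adjusted p = 0.022). In both genes the NKG2D- libraries were nearly equal, with coefficients of variation of 2.45% for Kif15 and 2.77% for Kif11, against 11.5% and 11.0% among the NKG2D+ libraries. Kif2c, a microtubule depolymerase, gave 0.98 (adjusted p = 0.127) and Kif4, a chromosome-arm motor, 0.82 (adjusted p = 0.0848), both without overlap. Kif22, another chromosome-arm motor, gave 0.29 with overlapping groups. Kif20a, a motor of the spindle midzone, gave 0.25 (adjusted p = 0.34), and Kif23, also found there, gave -0.01 (adjusted p = 0.987). Kif23 stood at 8.59, 7.22 and 7.05 CPM in NKG2D+ against 9.02, 7.03 and 6.92 CPM in NKG2D- libraries. Library 1 was the highest in both populations. The exons of Kif20a overlap Cdc23 on the other strand over 31.8% of their length, and those of Kif4 overlap Pdzd11 over 15.1%.

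Of 6 genes for spindle assembly and microtubule binding, Stmn1 rose. Stathmin, its product, destabilises microtubules. Stmn1 stood at 57.7, 64.4 and 59.4 CPM in NKG2D+ and 43.8, 39.98 and 37.8 CPM in NKG2D- libraries (log2 fold change 0.58, SE 0.08, adjusted p = 0.0281). The groups lay well apart although the difference was the smallest among the 11 genes. Nusap1, which bundles spindle microtubules, gave 1.00 (adjusted p = 0.0552) and was the gene nearest to the threshold from outside, as Ncapg was from inside. Aspm, a spindle pole protein, gave 0.83 (adjusted p = 0.0661), Hmmr, a spindle-binding protein, 0.67 (adjusted p = 0.0742) and Tpx2, which activates Aurora A on the spindle, 0.63 (adjusted p = 0.0666). These 4 had every NKG2D+ library above every NKG2D- library, as had 15.1% of all genes. Tacc3, which stabilises spindle fibres, gave 0.19 with overlapping groups. Tmem129, on the other strand, overlaps 9.49% of the exon length of Tacc3.

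Of 5 genes for cytokinesis and mitotic entry, Prc1 rose. PRC1 bundles the antiparallel microtubules of the midzone. Prc1 stood at 13.3, 9.998 and 11.2 CPM in NKG2D+ and 6.93, 6.37 and 6.89 CPM in NKG2D- libraries (log2 fold change 0.77, SE 0.14, adjusted p = 0.0477). Rccd1, on the other strand, overlaps 21.8% of its exon length. Anln, which encodes the actin-binding protein anillin, gave 0.54 (adjusted p = 0.157), Cdca3, a trigger of mitotic entry, 0.45 (adjusted p = 0.26) and Ect2, an exchange factor that acts at the division plane, 0.34 (adjusted p = 0.292). Racgap1, the partner of KIF23 in the centralspindlin complex, differed from these in sign. It stood at 175, 229 and 173 CPM in NKG2D+ and 290, 228 and 204 CPM in NKG2D- libraries (log2 fold change -0.33, SE 0.16, adjusted p = 0.309). Mice 1 and 3 were lower in NKG2D+ and mouse 2 was level, so the groups overlapped. Without single libraries its log2 fold change ran from -0.47 to -0.17, and with the B-cell covariate it was 0.04.

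Smc4 and Racgap1 were also the most abundant of the 56 by CPM. Together they held 34.8% to 38.1% of the summed CPM of the 56 genes in NKG2D+ and 51.04% to 54.6% in NKG2D- libraries. Hence the plain sum hid the shift, at 1049 to 1088 CPM in NKG2D+ against 905 to 1081 CPM in NKG2D- libraries. Without these 2 genes, left out after their values were seen, the other 54 summed to 699, 659 and 684 CPM in NKG2D+ and 491, 461 and 438 CPM in NKG2D- libraries, a ratio of means of 1.47. Per kilobase of exon in the GENCODE annotation of GRCm38, Racgap1 led in NKG2D+ cells with 62.7 CPM per kilobase, then Smc4 with 45.05, Stmn1 with 42.3, Cks2 with 15.3 and Incenp with 12.4. The lowest were Cdc25c with 0.237, Aspm with 0.402 and Cenpf with 0.535 CPM per kilobase. Mki67, at 8.52 CPM per kilobase, ranked 9.

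Other genes of the cell cycle, in lists that hold none of the 56, moved to differing degrees. These lists too were chosen with earlier results of these data known. Of 55 other periodic mitosis genes, 52 were estimated higher in NKG2D+ cells, and the median log2 fold change was 0.58, close to the 0.57 of the 56. Of these, 2 rose and 0 fell by edgeR, against 1.65% and 0.363% of all genes. DESeq2 called 21 higher, against 7.54%, and limma-voom 2, against 0.463%. At an unadjusted p under 0.05, 31 were higher, against 12.5% of all genes, and 1 lower. The 2 past edgeR were Arhgap11a, at 12.7, 11.3 and 11.6 against 7.13, 7.29 and 7.10 CPM (log2 fold change 0.73, adjusted p = 0.03), and Spag5, a spindle protein gene, at 6.24, 6.59 and 5.98 against 2.95, 3.67 and 2.96 CPM (log2 fold change 0.97, adjusted p = 0.0359). With the mouse as a block 0 of the 55 passed (31 higher at an unadjusted p under 0.05), with adjusted p-values of 0.0687 for both. Without NKG2D+ libraries 1, 2 and 3 edgeR called 8, 7 and 0 of them, and 0 without any 1 NKG2D- library.

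S-phase genes were shifted less in their median. Of 44 genes of DNA replication and S phase, 37 were estimated higher in NKG2D+ cells, and the median log2 fold change was 0.20, with quartiles of 0.05 and 0.36. By edgeR 2 rose and 0 fell, against 1.65% and 0.363% of all genes. DESeq2 called 9 higher, against 7.54%, and limma-voom 0, against 0.463%. At an unadjusted p under 0.05, 12 were higher, against 12.5% of all genes, and 0 lower. Clspn, a checkpoint adaptor at replication forks, stood at 12.5, 13.2 and 15.2 against 6.83, 8.25 and 7.22 CPM (log2 fold change 0.87, adjusted p = 0.0323, blocked adjusted p = 0.0677). Cdc6, which loads the replicative helicase, stood at 9.52, 9.94 and 10.01 against 6.90, 5.85 and 5.88 CPM (log2 fold change 0.66, adjusted p = 0.0498, blocked adjusted p = 0.0918). With the mouse as a block 1 S-phase gene passed, Rrm2, a subunit of ribonucleotide reductase, at 21.8, 15.4 and 16.6 against 11.8, 7.69 and 8.62 CPM (log2 fold change 0.94, adjusted p = 0.0687 without and 0.0364 with the block). Without NKG2D+ libraries 1, 2 and 3 edgeR called 5, 6 and 0 S-phase genes, and 0 without any 1 NKG2D- library. The helicase genes Mcm2 to Mcm7, also S-phase genes, had log2 fold changes from -0.08 to 0.11. The difference between the lists was not tested.

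Genes of complexes present through the whole cycle were not shifted in their median. Of 26 genes for the core of the anaphase-promoting complex, cohesin and related factors, 9 had a positive log2 fold change, and the median was -0.04. By edgeR 0 passed, against 1.65% of all genes called higher and 0.363% lower. DESeq2 and limma-voom each called 0. At an unadjusted p under 0.05, 1 was higher, against 12.5% of all genes, and 1 lower. The smallest p was that of Anapc5, a subunit of the complex, at 218, 259 and 239 CPM in NKG2D+ and 281, 287 and 278 CPM in NKG2D- libraries (log2 fold change -0.24, adjusted p = 0.146).

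Of 29 regulators of G1 and inhibitors of the cell cycle, 1 rose and 0 fell by edgeR, against 1.65% and 0.363% of all genes. DESeq2 called 8 higher and 1 lower, against 7.54% and 3.05%, and limma-voom 0. At an unadjusted p under 0.05, 10 were higher, against 12.5% of all genes, and 2 lower. The gene that rose by edgeR, Cdkn2a, encodes the CDK inhibitor p16INK4a and the p53 regulator p19ARF. It stood at 3.12, 1.03 and 1.85 CPM in NKG2D+ and 0.101, 0.321 and 0.249 CPM in NKG2D- libraries (log2 fold change 3.10, SE 0.54, adjusted p = 0.0443, blocked adjusted p = 0.109). The groups did not overlap, and mouse 1 was at once the highest NKG2D+ and the lowest NKG2D- library.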

How the data were processed

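RNA of sorted cells was made into TruSeq libraries after column extraction with DNase digestion, per the labels' protocols. The authors deposited a file for each library with raw read counts by gene symbol. CASAVA 1.8.2, TopHat2 2.0.4 and mm9 are named in the submitters' processing notes, while no source used here names the counting program, annotation or strand setting. Hence genes overlapping on the other strand, and those with close copies such as annotated pseudogenes of Ccnb1, Ccnb2, Kif22 and Kif4, are uncertain. The 5 summary rows were left out of library sizes. Multiply aligned reads were 19.7% to 21.0% of all counted reads in NKG2D+ and 21.6% to 26.2% in NKG2D- libraries, without overlap. Reads outside genes were 14.0% to 15.9% and ambiguous reads 0.715% to 0.836%.

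Groups and replicate numbers came from the labels. Deviations from group means (log2(CPM + 0.5)) correlated across genes by 0.25, 0.20 and 0.38 within same-numbered pairs and by -0.21 to 0.02 between other pairs. The series description gives 3 mice without saying which libraries share one, so the pairing by number is inferred. P-values measure the spread between these samples. Within groups, chi-square over degrees of freedom between libraries was 41.8 to 256, so none was a copy.

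Counts were tested in R 4.3.3 with edgeR 4.0.16 (TMM, robust dispersion and quasi-likelihood F-test in legacy mode, group as the only term, filterByExpr with a minimum count of 10 and total of 15, Benjamini-Hochberg adjustment over 12951 genes, threshold 0.05). All 56 genes passed the filter. Alternatives were RLE scaling, DESeq2 1.42.0, limma-voom 3.58.1, no filter, the mouse as a block, leaving out each library or mouse, a B-cell marker covariate and, chosen after seeing the data, edgeR's newer quasi-likelihood fit. On simulated counts for this comparison (12951 genes), 44% of 50 genes made to differ 1.5-fold and 94% of 50 at 2-fold were recovered. The changed genes were drawn from those with a mean over 1 CPM. Each library was drawn independently with the trended dispersion, so spread particular to a gene or a mouse was left out. Recovery in the real data may be lower. Exon lengths and overlaps are from GENCODE M21 (GRCm38), which is not the build of the counts. Members and lists were chosen with earlier results of these data known. Genes named are those past the threshold, the smallest p in each role group or list, and the extremes, and the remaining members are given by their estimates.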

Additional observations from a re-analysis of the deposited data

How the results depend on the processing

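The direction of the 56 genes was more stable than their calls. Over the alternatives run, 53 to 55 had a positive log2 fold change, and the median ran from 0.54 to 0.66, the highest with the B-cell covariate (0.66), without both libraries of mouse 1 (0.65) and without NKG2D- library 1 (0.65). Without single libraries it ran from 0.56 to 0.65. The 11 genes that rose kept their sign in every alternative. All 11 passed with RLE scaling and with DESeq2, 10 without the filter and with the newer edgeR fit, 6 with limma-voom and 3 with the replicate block. The count of the 56 called higher was 11 with all libraries, 31 by DESeq2, 6 by limma-voom, 3 with the replicate block, 4 without mouse 2 (2.45% of all genes), 0 without mouse 3 (0% of all genes) and 0 with the B-cell covariate (0.0154% of all genes). By edgeR, 16 and 28 were higher at an unadjusted p under 0.05 in the fits without mouse 3 and with the covariate. Over all genes, 731 of 12964 and 394 of 12951 were. Without single libraries the count called higher ran from 0 to 18. The count called lower was 1 (Smc4) by DESeq2, without the filter, without mouse 1 and without NKG2D+ library 1, and ran from 0 to 1 without single libraries.

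Over all genes 261 were called, 1444 by DESeq2, 83 by limma-voom, 68 with the replicate block, 0 without mouse 3, 2 with the covariate, and 8 to 1312 without single libraries. Of other periodic mitosis genes 2 were called higher, 21 by DESeq2, 1 without mouse 1, 0 with the replicate block, without mouse 3 or with the covariate, and 0 to 8 without single libraries. Of S-phase genes 2 were called, 9 by DESeq2, 1 without the filter, with the replicate block or with the newer edgeR fit, 4 without mouse 1, 0 by limma-voom, without mouse 2, without mouse 3 or with the covariate, and 0 to 6 without single libraries. The cause of these moves was not tested. Fits without libraries have fewer samples, and the block and the covariate leave fewer residual degrees of freedom. Calls over all genes went up as well as down without single libraries, with 543 without NKG2D+ library 1 and 1312 without NKG2D+ library 2. Cdc25c, under 1 CPM in every library, had a log2 fold change of 1.27, a standard error of 0.36 and an adjusted p of 0.117 by edgeR. Near a doubling, Ccnb1 (log2 fold change 1.02), Nusap1 (1.00) and Kif2c (0.98) also missed the threshold. Cdk1 (1.02), Aurkb (1.05) and Kif11 (0.98) passed it. The part of level and depth in these calls was not tested.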
